A study of Homo sapiens and Mus musculus with 21 samples.

Results

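The aminoacyl-tRNA synthetase genes are 36 human genes, 20 named for the cytosolic enzymes and 16 for the mitochondrial ones, out of 20037 protein-coding genes of the reference. They were chosen by name, as a list of cytosolic and mitochondrial synthetases under their older symbols (AARS is now AARS1, and likewise for the others), and all 36 matched the reference gene table of GRCh38.p14. They were followed in HEK293T, a transformed human embryonic kidney line, in PCIF1 knockout (KO) cells and in wild-type (WT) cells. PCIF1 is the enzyme that the study names as the writer of m6Am, N6,2′-O-dimethyladenosine at the first transcribed base. The libraries used here were 2 KO and 1 WT library of miCLIP, which maps N6-methylated adenosines with an antibody (ab151230), and 3 KO and 2 WT libraries each of input RNA and of ribosome-protected fragments. A further 6 libraries of SLAM-seq, which follows the loss of 4-thiouridine label, covered KO and WT at 0, 6 and 12 h of uridine chase and entered only through a deposited ratio. The labels do not say whether KO replicates came from separate clones or cultures, so each p-value reflects the variation among these libraries alone, and that variation may be technical.

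Aminoacyl-tRNA synthetases join each amino acid to its tRNA, the step that fixes the genetic code. Mitochondria translate their own genome with a separate set of synthetases, encoded in the nucleus and named with a final 2, while GARS and KARS serve both compartments. Several cytosolic enzymes (EPRS, IARS, LARS, MARS, QARS, RARS, KARS and DARS) form one multi-synthetase complex. Transcription of many cytosolic synthetase genes is raised by ATF4, the factor of the amino acid response, through a C/EBP-ATF element.

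The sequence around the start bears on m6Am directly, since only a transcript that begins with A can carry it. RefSeq (GRCh38.p14) gave 39 promoter windows for 30 of the 36 genes, each from 250 bases before the start to 50 from it. Windows of 30 bases follow for synthetase genes whose results are described below, with the annotated start base in capitals. The first 4 begin with A and have an m6Am region, the next 2 begin with G and have one, and the last 2 have none.
FARSA, chr19:12933692-12933721, minus strand: cacgctgagcAcactggaaggagtcatggc
RARS, chr5:168486461-168486490, plus strand: gcttccgtccActtggcgagtgagacgctg
IARS2, chr1:220094122-220094151, plus strand: gcgccctcttActcggctccccttggtttc
YARS2, chr12:32755878-32755907, minus strand: caatcccagcAttcccttcgtgccgctacc
EPRS, chr1:220046486-220046515, minus strand: ggggcggagcGaaggctgcggcggcgtcgg
LARS2, chr3:45388566-45388595, plus strand: cgataaagttGctgttttgacaacatggcg
SARS, chr1:109213883-109213912, plus strand: gcgcctgcgcAggaagggcgggtcagcgcg
HARS2, chr5:140691445-140691474, plus strand: tcccggaagtGccgaagctggctactaagg

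The promoter windows were also searched for TGATGNAA, the core of the C/EBP-ATF element, on both strands. It lay in 7 of 16 cytosolic genes with a window (43.8%, exact 95% interval 19.8 to 70.1%) and in 1 of 14 mitochondrial genes (7.14%, 0.181 to 33.9%). Of all protein-coding genes with a window, 571 of 15843 (3.6%) held it. The copies of 6 of these genes are shown with the matching bases in capitals, because the same letters recur in several members.
AARS, chr16:70289675-70289704, minus strand: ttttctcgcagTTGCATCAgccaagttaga
CARS, chr11:3057407-3057436, minus strand: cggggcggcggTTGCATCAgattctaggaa
GARS, chr7:30594834-30594863, plus strand: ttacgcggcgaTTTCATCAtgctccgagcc
MARS, chr12:57488053-57488082, plus strand: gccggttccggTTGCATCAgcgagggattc
TARS, chr5:33440956-33440985, plus strand: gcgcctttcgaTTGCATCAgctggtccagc
YARS2, chr12:32756076-32756105, minus strand: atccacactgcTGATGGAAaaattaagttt

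In CARS and MARS the 8 letters spanned the annotated start base itself. Counted from 0 at the start base of the window, the first of the letters lay at 2 in TARS, 14 in NARS, -13 in IARS and -33 in GARS. For TARS and GARS that base is another RefSeq start and not the annotated gene start. The copies of AARS (-187) and YARS2 (-197) lay farther upstream. A match describes these letters and not binding, and ATF4 binding was not analysed here.

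m6Am regions were common at synthetase starts. The authors' strict list holds 2360 regions with edges on a 50-nt grid and a score whose basis is not stated. A region lay within 50 nt of the annotated start, on the same strand (for VARS and AARS2, with no strand at hand, on either), in 18 of 36 synthetase genes (50%, 32.9 to 67.1%), 13 of 20 cytosolic (65%, 40.8 to 84.6%) and 5 of 16 mitochondrial (31.2%, 11 to 58.7%). Over all protein-coding genes the share was 1783 of 20037 (8.9%). That total takes in genes whether or not these cells express them, and among the 9266 genes with an m6A site in the WT list it was 16.4%, against 18 of 34 synthetase genes with such a site (52.9%, 35.1 to 70.2%). The regions come from a single list with no replicate, and synthetase sites were also read more deeply than others, as given below. The part of read depth in this difference was not tested.

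Among the cytosolic genes, IARS, the isoleucine enzyme, had the highest score (4.39, rank 89 of 2360). FARSA, the catalytic subunit of the phenylalanine enzyme, followed with 4.37 (chr19:12933651-12933750), and MARS, the methionine enzyme, with 4.28 (chr12:57488051-57488150). FARSB, the partner subunit of FARSA, had the lowest score of the synthetase genes, 2.34, and rank 2097. Both subunits of 1 enzyme thus lay at opposite ends of the synthetase scores. The others were AARS (3.97), KARS (3.72), NARS (3.68), RARS (3.49), VARS (3.17), CARS (3.0), LARS (2.71), YARS (2.58) and EPRS, the glutamate and proline enzyme (2.43). The 5 mitochondrial genes were YARS2 (4.36), EARS2 (3.64), LARS2 (2.79), IARS2 (2.76) and AARS2 (2.65). Of all regions the median score was 2.9.

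**Figure D1:**
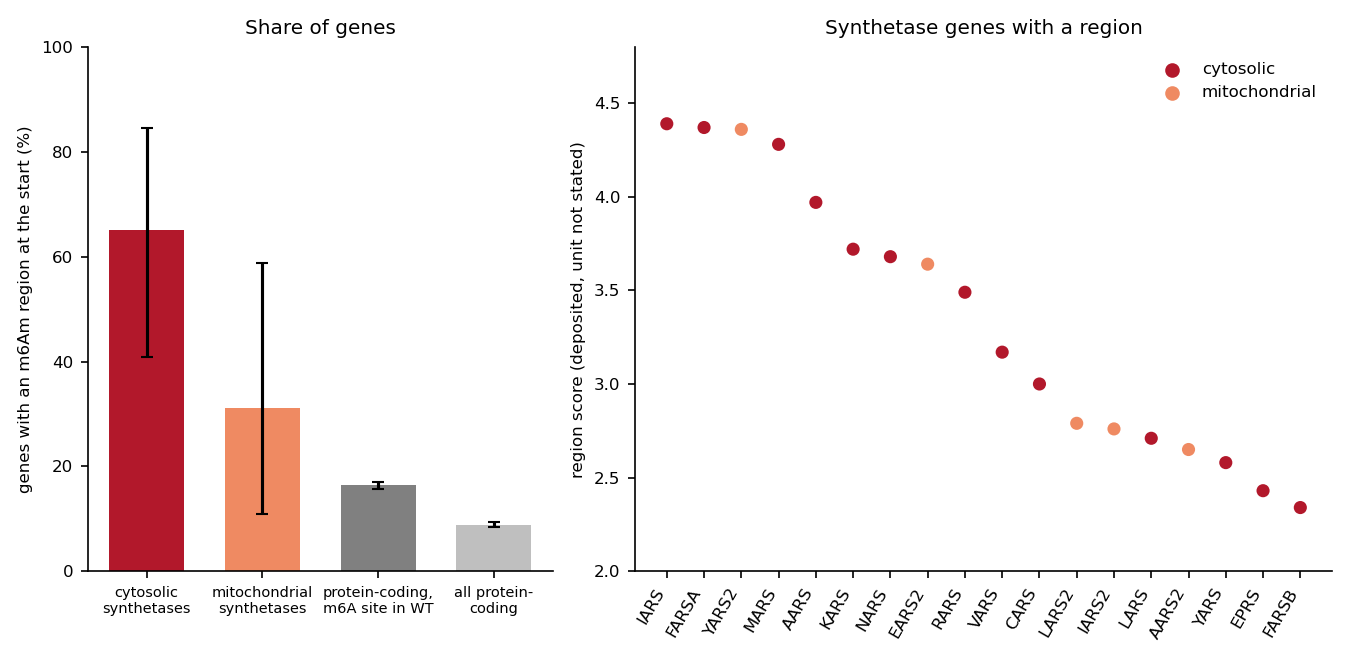
m6Am regions at synthetase gene starts. Left, bars give the share of genes (%) with a region within 50 nt of the annotated start, with exact 95% intervals; cytosolic synthetases reached 65% and mitochondrial ones 31.2%, against 16.4% of protein-coding genes with an m6A site in WT and 8.9% of all. Right, each point is the deposited score of the region of 1 of 18 synthetase genes, highest in IARS (4.39) and lowest in FARSB (2.34).

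No region lay within 50 nt of the start of the other 18 genes. Of the cytosolic genes these were DARS, GARS, HARS, QARS, SARS, TARS and WARS, and of the mitochondrial ones CARS2, FARS2, HARS2, MARS2, NARS2, PARS2, RARS2, SARS2, TARS2, VARS2 and WARS2. For GARS and TARS the reference start decided this. A region lay 66 nt from the GARS start (score 2.97) and 255 nt from the TARS start (3.59), and each covered another RefSeq start of the same gene. Counting any RefSeq promoter start, an alternative chosen after seeing the data, 20 of 36 genes had a region. HARS and HARS2, which are transcribed in opposite directions from starts 85 nt apart, both lacked one.

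All 8 synthetase genes with the TGATGNAA letters had a region within 50 nt of a RefSeq start (exact interval 63.1 to 100%), against 8 of 22 without them (36.4%, 17.2 to 59.3%). This counts any RefSeq start of a gene. At the annotated gene start, GARS and TARS, both with the letters, had no region within 50 nt. Over protein-coding genes the order was the opposite: 45 of 571 genes with the letters had a region (7.88%, 5.81 to 10.4%), against 1696 of 15272 without (11.1%, 10.6 to 11.6%). The members were not drawn independently of these data, so the counts are given without a test. Of the 8 synthetase genes with the letters, 7 were cytosolic and 1 mitochondrial. Regions within 50 nt of the annotated start were also more frequent in cytosolic than in mitochondrial genes (65% against 31.2%). The part of this in the contrast between the 8 and the 22 genes was not tested.

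Synthetase starts with and without a region both included A and G at the RefSeq start base. Of all 39 windows, 16 began with A (41.0%, 25.6 to 57.9%) and 19 with G (48.7%, 32.4 to 65.2%), against 50.1% A and 36.2% G over 22199 protein-coding windows. Of the 17 windows with a region, 9 began with A (52.9%, 27.8 to 77%) and 8 with G, against 7 of 22 with A without a region (31.8%, 13.9 to 54.9%). The intervals overlap, and the difference was not tested. Among protein-coding windows with a region, 57.7% began with A. The annotated start is 1 position per transcript, and cells may use neighbouring starts, so a G in these windows does not show that no transcript of the gene begins with A.

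The authors' deposited tables class transcript starts as m6Am, A, C, G or T. Of the 12 synthetase genes in the authors' deposited efficiency table, 11 were classed m6Am (91.7%, 61.5 to 99.8%) and SARS, the serine enzyme, was classed A. Over that table, 416 of 765 genes were classed m6Am (54.4%). In the authors' deposited SLAM-seq table LARS2 was classed m6Am and HARS2 A. Each synthetase gene classed m6Am also had a region within 50 nt of its annotated start or of another RefSeq start. SARS and HARS2, classed A, had none. The class share was therefore not taken as a result independent of the regions. Of these 12 genes classed m6Am, 10 had a RefSeq window, and 6 of them began with A at some annotated start; the windows of EPRS and LARS2, printed above, begin with G.

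m6A sites were listed within the span of almost every synthetase gene, counted over the whole span with introns. The miCLIP lists give single adenosines in the DRACH context, with the reads at the position and the reads that carry the substitution left by the crosslinked antibody. Synthetase genes held 150 sites in KO replicate 1 and 164 in KO replicate 2, against 151 in WT. At least 1 site was listed in 32 and 33 of 36 genes in the KO libraries (88.9% and 91.7%), and in 34 of 36 in WT (94.4%). Over protein-coding genes, whether or not these cells express them, the shares were 45.1% and 47.1% in KO and 46.2% in WT. Median reads at a synthetase site were 63.5 and 70.5 in KO and 50 in WT, while over all listed sites they were 37 and 42 in KO and 30 in WT. RARS2, the mitochondrial arginine enzyme, was the 1 gene with no site in any list.

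The lists overlapped only in part. Of 306 distinct positions in synthetase genes, 49 were in all 3 lists, 61 in 2 and 196 in 1. Of the 150 sites of KO replicate 1, 77 (51.3%) were also in KO replicate 2, and 66 (44.0%) were in WT. Of the 151 WT sites, 66 (43.7%) were in KO replicate 1 and 65 (43.0%) in KO replicate 2. A site missing from a list may lie below its calling threshold, and 15 positions also lay in the span of another gene, mostly GGA2 beside EARS2. With 1 WT library there is no spread for that group and no test of genotype.

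LARS2, the mitochondrial leucine enzyme, had the most sites of the WT list, with 10 and 12 in KO and 13 in WT. SARS had 11 and 7 in KO and 11 in WT. PARS2 had 9 and 3 in KO and 10 in WT, so the KO replicates differed from each other more than KO replicate 1 did from WT. AARS2, counted on either strand because its strand was not at hand, had 7 and 12 in KO and 9 in WT. EPRS had 6 and 7 in KO and 8 in WT. YARS, the tyrosine enzyme, had the most in KO replicate 1 (14), then 11 in KO replicate 2 and 7 in WT. The remaining genes had between 0 and 12 sites in any list.

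**Figure D2:**
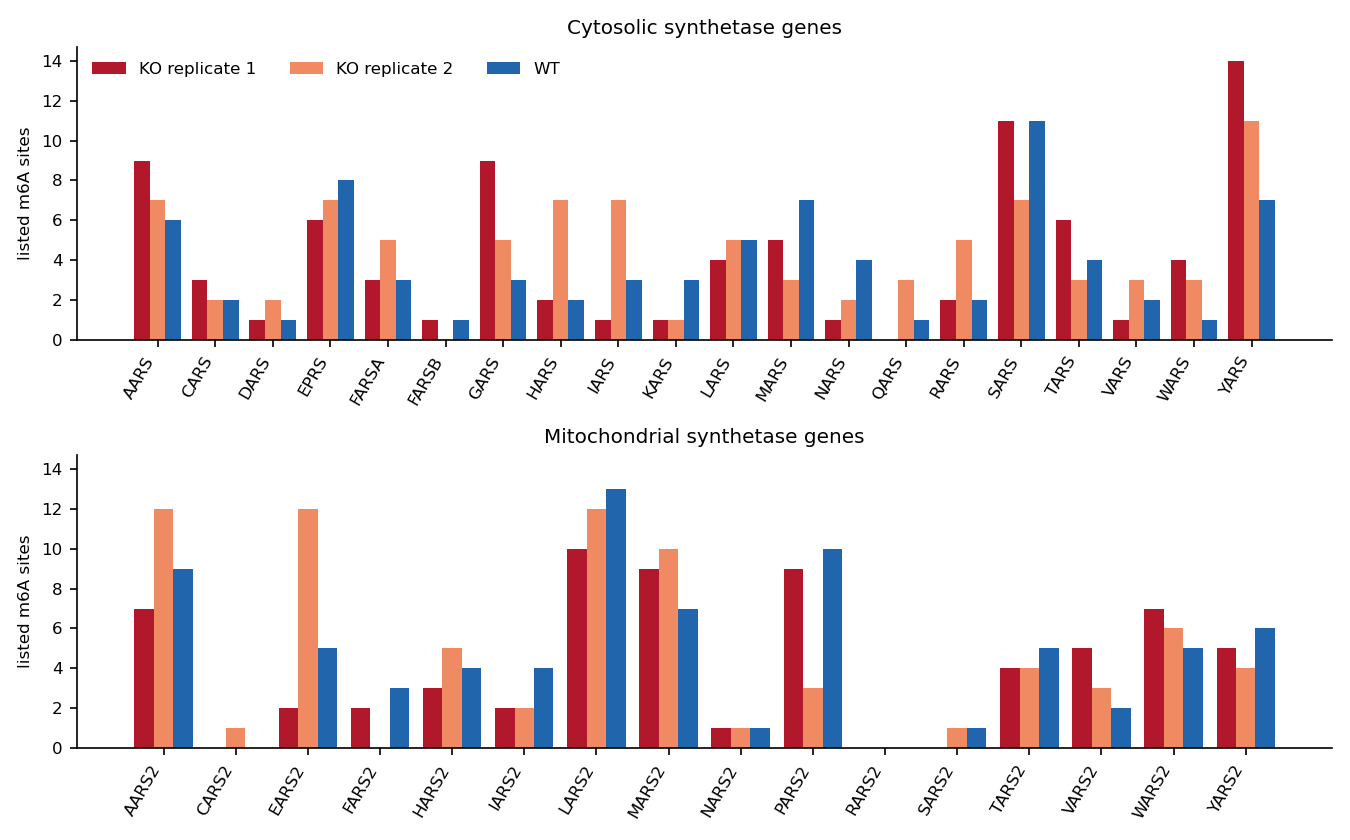
m6A sites listed in each synthetase gene. Bars give the number of DRACH positions per gene in KO replicate 1, KO replicate 2 and WT, for cytosolic (top) and mitochondrial genes (bottom); LARS2 (10, 12 and 13) and SARS (11, 7 and 11) have many in each list, and RARS2 has none.

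Sites gathered towards the 3′ end of the genes. Of sites in synthetase genes of known strand, 93 of 136 lay within 2000 nt of the annotated gene end in KO replicate 1 (68.4%, 59.9 to 76.1%) and 86 of 144 in KO replicate 2 (59.7%, 51.2 to 67.8%), against 84 of 137 in WT (61.3%, 52.6 to 69.5%). Over protein-coding genes the shares were 35.6% in each KO library and 34.8% in WT, with gene spans that differ from those of the synthetases. No list held a synthetase site within 50 nt of the start, which in WT allows a share of up to 2.66% of 137 sites. Such sites were rare over protein-coding genes too, at 0.125% and 0.148% of sites in KO and 0.253% in WT. The absence is therefore not particular to synthetase genes. None of the 20 m6Am regions found near a synthetase start held a listed m6A site.

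The substituted share was compared at the 49 positions listed in all 3 libraries. It was 5.21% of 9187 reads in KO replicate 1 (4.77 to 5.69%) and 5.4% of 9052 in KO replicate 2 (4.95 to 5.89%), against 4.85% of 7726 in WT (4.38 to 5.36%). All 3 intervals overlap. Only positions called in every list enter this comparison, so it cannot show sites gained or lost in KO. Over the 11576 positions of the whole lists that all 3 shared, the values were 6.43% and 6.3% in KO and 6.46% in WT. WT lay above both KO libraries at 16 of the 49 positions, below both at 15 and between them at 18. At 0 of the 49 did the WT interval lie apart from both KO intervals. These counts were not made over the 11576 shared positions, so they describe the 49 and are not a trait of synthetase genes.

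The position with most substituted reads lay in EPRS (chr1, 219997096, minus strand, motif GGACA), well inside the gene at 28496 nt from its end. There 41 of 347 and 35 of 367 reads were substituted in KO (11.82% and 9.54%), and 32 of 276 in WT (11.59%). LARS, the cytosolic leucine enzyme, had the next (chr5, 146114161, TGACT, 1127 nt from the end), with 11.83% and 17.83% in KO and 10.87% in WT. At both, the WT value fell among or just below those of KO and the intervals overlapped.

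SARS held a pair of positions 183 and 292 nt from its end. At the first (chr1, 109237999, TGACT) 5.56% and 3.91% of reads were substituted in KO and 3.64% in WT. At the second (chr1, 109237890, GAACA) they were 4.69% and 3.48% in KO and 1.72% in WT. YARS (chr1, 32775865, GGACT) had 3.6% of 695 reads and 3.61% of 692 in KO, and 1.5% of 599 in WT. For YARS the WT interval (0.689 to 2.833%) still overlapped those of KO (2.341 to 5.264% and 2.351 to 5.287%). LARS2 (chr3, 45547836, AGACA) had 7.78% and 18.49% in KO and 12.84% in WT, so WT lay between the KO replicates.

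**Figure D3:**
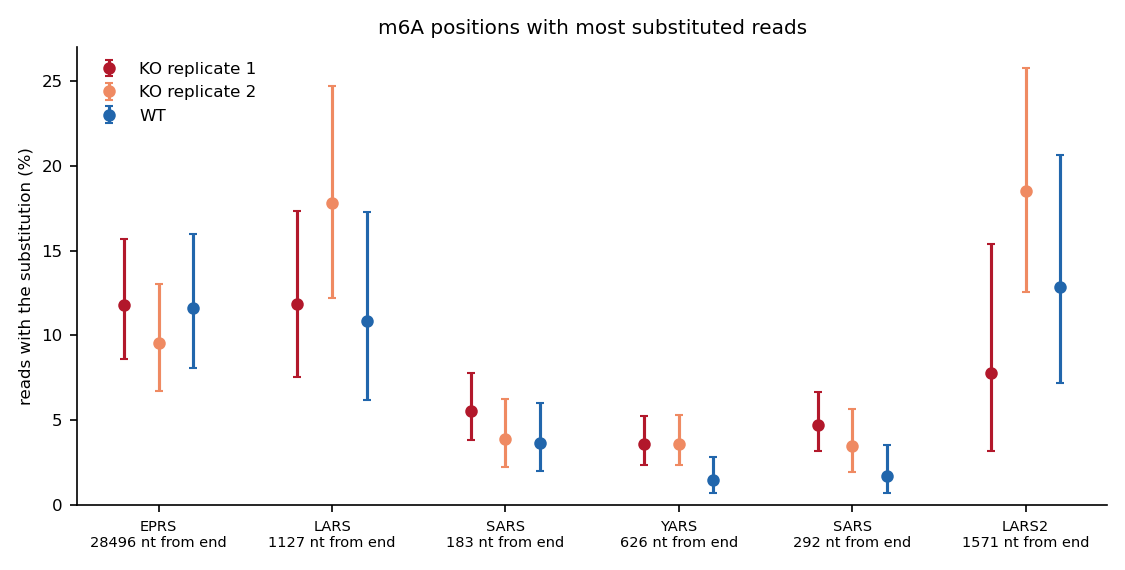
Share of substituted reads (%) at the 6 m6A positions in synthetase genes with most substituted reads. Points are KO replicate 1, KO replicate 2 and WT, with exact 95% intervals that cover counting error only; at each position the WT interval overlaps at least 1 KO interval, and the EPRS position reads 11.82%, 9.54% and 11.59%.

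RNA level and ribosome occupancy could be set beside a name for a subset only. The count tables name genes by Ensembl identifier, and the sources used here pair it with a name only in the authors' class tables. That gave input counts for 14 synthetase genes (11 cytosolic and HARS2, IARS2 and LARS2) and fragment counts for 12. The level of the other 22, and of PCIF1 itself, is not analysed here, so the deletion was not checked at the RNA level. Input libraries held 4511687 to 5960674 counts and fragment libraries 17665 to 124580 over the 785 listed genes, lowest in WT replicate 1. Levels are given as CPM, counts scaled to a common library size with TMM factors. A count of 3 corresponds to 0.503 to 0.665 CPM in the input, and in the fragments, over listed genes alone, to between 24.1 and 170 CPM. WT input replicate 1 stood apart on the first principal component (40.21, against -16.27 to -2.22 for the other 4 libraries). The 3 HEK293T marker genes with counts were present: IRS4 at 439.2 to 512.5 CPM in KO and 497.1 and 560.9 in WT, VIM at 344.4 to 371.6 in KO and 341.4 and 377.6 in WT, and LIN28B at 27.3 to 30.8 in KO and 19.3 and 22.1 in WT. Of 5 fibroblast, 4 blood and 3 liver markers, 0 could be paired with counts.

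In the input RNA, 0 of 14 synthetase genes passed an adjusted p of 0.05 between KO and WT (edgeR quasi-likelihood test, Benjamini-Hochberg over 14629 genes), where 0.0342% of all genes did, 5 genes in all. At an unadjusted p under 0.05 there were 3 of the 14, against 9.3% of all genes tested, and DESeq2 called 0 of the 14. In bulk RNA, fewer cells of a kind and less RNA per cell cannot be told apart. The log2 fold changes, KO over WT, had a median of 0.03 over 11 cytosolic genes and -0.10 over the 3 mitochondrial ones, against -0.02 over all genes tested, and ran between -0.27 and 0.42.

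RARS, the arginine enzyme, had 111.1, 102.6 and 92.9 input CPM in KO, against 68.8 and 83.8 in WT. Every KO library lay above both WT libraries, with a log2 fold change of 0.42 (SE 0.135, edgeR adjusted p = 0.488). EPRS had 144.1, 142.9 and 142.3 CPM in KO, against 96.6 and 130.0 in WT (log2 fold change 0.34, SE 0.129, edgeR adjusted p = 0.514). These were 2 of 14 synthetase genes with all KO libraries above WT, a pattern of 10.7% of all genes. IARS2, the mitochondrial isoleucine enzyme, had 183.7, 181.4 and 158.6 CPM in KO, against 236.4 and 185.0 in WT (log2 fold change -0.27, SE 0.119, edgeR adjusted p = 0.531). It was the 1 of 14 with all KO libraries below WT, a pattern of 13.5% of all genes.

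The size of these differences depended on which WT library was kept. Without WT replicate 2, leaving WT replicate 1 as the lone WT library, whose spread was taken from KO, RARS (0.60, edgeR adjusted p = 0.00111), EPRS (0.60, 0.000167) and IARS2 (-0.40, 0.00332) passed the threshold, among 1912 genes that did. Without WT replicate 1 the log2 fold changes were 0.29, 0.14 and -0.08, and none of the 14 passed.

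The other 11 genes had KO and WT ranges that overlapped. YARS, the most counted of them, had 551.1, 534.7 and 564.6 CPM in KO and 558.0 and 556.6 in WT. AARS, the alanine enzyme, had 426.3, 457.0 and 457.4 in KO and 443.9 and 487.3 in WT. SARS had 364.3, 349.3 and 366.9 in KO and 365.6 and 363.4 in WT. In each of these 3 the groups differed by no more than 0.06 on the log2 scale.

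IARS had 407.7, 392.6 and 406.0 CPM in KO and 416.6 and 381.0 in WT. FARSA had 359.6, 375.8 and 413.2 in KO and 343.0 and 404.8 in WT. LARS2 had 323.9, 287.5 and 317.1 in KO and 349.2 and 313.8 in WT, with a log2 fold change of -0.10 (SE 0.0935). SARS, classed A, and YARS, classed m6Am, both had a log2 fold change of -0.02.

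GARS, the glycine enzyme, had 226.0, 205.2 and 202.1 CPM in KO and 262.2 and 197.8 in WT, so the KO libraries lay between the WT libraries. KARS, the lysine enzyme, had 200.1, 172.8 and 182.0 in KO and 187.2 and 172.8 in WT. LARS had 137.8, 139.4 and 126.6 in KO and 124.2 and 132.8 in WT. Of the lower ones, TARS, the threonine enzyme, had 143.1, 130.7 and 126.9 in KO and 129.6 and 124.5 in WT, and HARS2, the mitochondrial histidine enzyme, had 93.5, 83.2 and 95.6 in KO and 98.1 and 89.0 in WT.

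**Figure D4:**
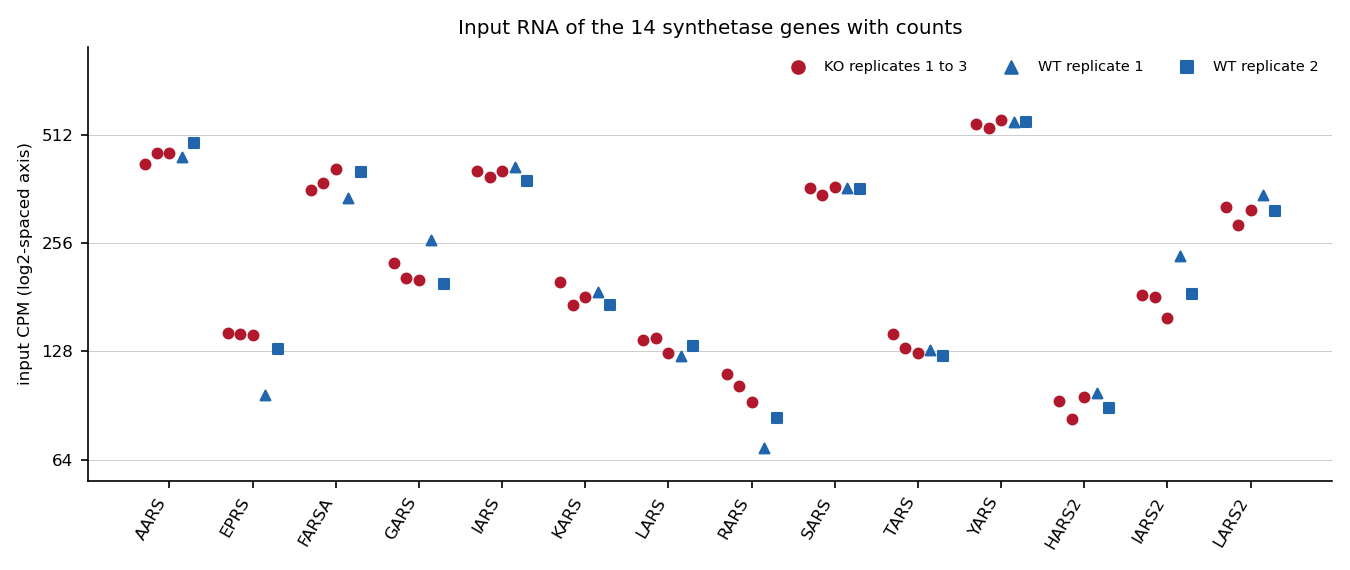
Input RNA of the 14 synthetase genes with counts. Each point is the CPM of 1 library on a log2-spaced axis, with KO replicates 1 to 3 left of WT replicates 1 and 2 for each gene; KO lies above both WT libraries in RARS and EPRS and below both in IARS2, where WT replicate 1 is the farther of the WT points.

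Ribosome-protected fragments are the stretches of mRNA that ribosomes shield from nuclease, so that their counts follow how many ribosomes a transcript holds. Of the 12 listed synthetase genes, 0 passed an adjusted p of 0.05 (edgeR quasi-likelihood test over 785 genes), and 0% of all listed genes did. At an unadjusted p under 0.05 there was 1 of 12, FARSA, against 3.82% of the listed genes, and DESeq2 called 0 genes. The median log2 fold change was -0.03, against 0.0 over all listed genes. Counts were low, from 10 to 138 in the WT libraries.

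FARSA had 104, 33 and 65 fragment counts in KO, against 14 and 18 in WT. Scaled, this was 809.8, 790.8 and 1092.5 CPM in KO, against 752.5 and 291.3 in WT, with every KO library above WT. The log2 fold change was 1.0 (SE 0.385, edgeR adjusted p = 0.915). WT replicate 2 was the low one: the value was 0.25 without it and 1.61 without WT replicate 1. FARSA was the 1 of 12 with all KO above WT, a pattern of 10.6% of the listed genes, and 0 of 12 had all KO below WT, a pattern of 10.4%.

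GARS had 1113.5, 1677.4 and 991.7 CPM in KO and 698.7 and 1019.7 in WT, ranges that overlapped (log2 fold change 0.48, SE 0.316, and 0.24 to 0.83 leaving out 1 library). IARS had 1674.1, 1509.7 and 1126.2 in KO and 913.7 and 2233.6 in WT. Here the WT libraries lay on either side of KO, and the log2 fold change was -0.63 without WT replicate 1 and 0.66 without WT replicate 2. EPRS had 2149.1, 1509.7 and 1882.5 in KO and 1881.1 and 1958.5 in WT (log2 fold change -0.05), and RARS had 1105.7, 982.5 and 722.8 in KO and 913.7 and 971.1 in WT (-0.01).

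The other 7 had overlapping ranges too. AARS had 700.8, 694.9 and 790.0 CPM in KO and 1128.7 and 647.4 in WT. SARS had 942.2, 1006.5 and 857.2 in KO and 537.5 and 906.4 in WT. For AARS the WT libraries lay on either side of KO, and for SARS WT replicate 1, the library with fewest counts, lay below KO. LARS had 864.3, 671.0 and 941.3 in KO and 645.0 and 728.4 in WT. KARS had 856.5, 647.0 and 823.6 in KO and 752.5 and 679.8 in WT. TARS, YARS and IARS2 had log2 fold changes of -0.08, -0.12 and -0.06.

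Translational efficiency is the ratio of fragments to input. It was tested as the difference between the KO effects in the 2 kinds of library, and 0 of 12 synthetase genes passed an adjusted p of 0.05 (edgeR quasi-likelihood test over 785 genes), where 0% of all genes did. At an unadjusted p under 0.05 there was 1 of 12, against 6.75% of all. The median log2 fold change was 0.03, against -0.02 over all genes tested. Fragment counts of 10 to 276 per synthetase gene and library limit what this test can detect.

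To show each library, fragment CPM was divided by the mean input CPM of its genotype and set to 1 at the median listed gene. FARSA had 0.466, 0.463 and 0.634 in KO, against 0.427 and 0.175 in WT (log2 fold change 1.04, SE 0.378, edgeR adjusted p = 0.592). WT replicate 2 was again the low one, and without it the log2 fold change was 0.05. GARS had 1.16, 1.78 and 1.04 in KO, against 0.644 and 0.997 in WT (0.55, SE 0.324), and IARS2 had 1.23, 1.48 and 1.41, against 1.19 and 1.14 (0.21, SE 0.256). The GARS value was 0.16 without WT replicate 1 and 1.08 without WT replicate 2, and that of IARS2 ran from 0.07 to 0.33 leaving out 1 library. FARSA, GARS and IARS2 were the 3 of 12 with all KO values above WT, a pattern of 12.5% of the listed genes.

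RARS and EPRS went the other way. RARS had 2.38, 2.15 and 1.57 in KO, against 2.54 and 2.86 in WT (log2 fold change -0.42, SE 0.303, edgeR adjusted p = 0.763), and EPRS had 3.31, 2.36 and 2.92, against 3.52 and 3.89 (-0.38, SE 0.265, edgeR adjusted p = 0.755). Leaving out 1 library, the RARS value ran from -0.54 to -0.30 and that of EPRS from -0.58 to -0.19. These genes were the 2 of 12 with all KO values below WT, a pattern of 12.1% of the listed genes. Both were also the genes with more input RNA in every KO library, and the input is the divisor of this ratio. The part of the input in their lower ratios was not tested.

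Of the 12 genes, 9 lay on 1 side of the median listed gene in every library of both genotypes. The share of all listed genes that do so was not counted, and libraries of a genotype share the same input mean as divisor. This count therefore describes these genes and is not a trait of synthetases. EPRS, RARS, TARS, LARS and IARS2 lay above the median listed gene in all 5 libraries, TARS at 2.54, 2.17 and 2.18 in KO and 2.24 and 2.75 in WT. AARS, FARSA, SARS and YARS lay below it in all 5, AARS at 0.345, 0.349 and 0.393 in KO and 0.514 and 0.313 in WT. YARS had 0.486, 0.312 and 0.421 in KO and 0.47 and 0.418 in WT. GARS lay above it in the 3 KO libraries and below it in the 2 WT libraries, and IARS and KARS lay on both sides. The ratio is not corrected for the untranslated part of each transcript.

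**Figure D5:**
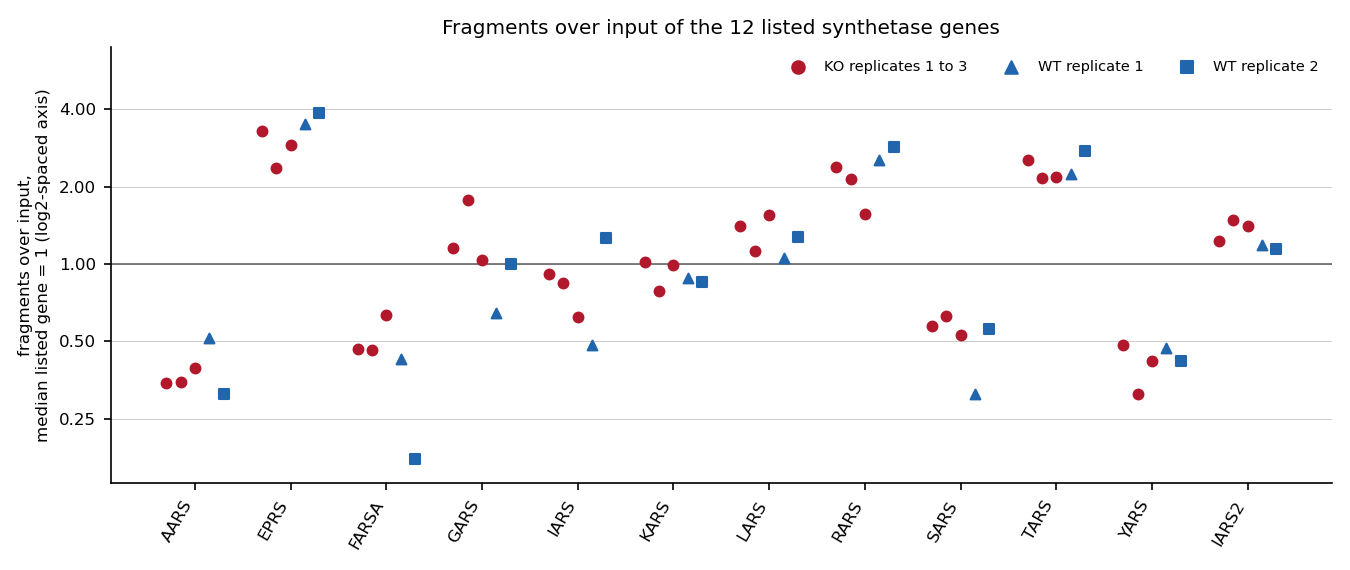
Fragments over input for the 12 listed synthetase genes. Each point is 1 fragment library divided by the mean input of its genotype, set to 1 at the median listed gene, on a log2-spaced axis, with KO replicates left of WT replicates; EPRS lies between 2.36 and 3.89 and AARS between 0.313 and 0.514 in all libraries, and WT replicate 2 is the low point of FARSA (0.175).

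The authors' deposited efficiency table gives the same quantity from their own fit, with no direction stated. Its log2 fold changes had a Pearson correlation of 0.992 with those above across 765 genes, which are not independent replicates, so its direction was taken as KO over WT. Of 12 synthetase genes, 0 had an adjusted p under 0.05 in the authors' deposited table, where 0.262% of 764 genes did. FARSA stood at 1.05 there (SE 0.398, adjusted p = 0.393, the authors' deposited table), GARS at 0.57, RARS at -0.41 and EPRS at -0.36 in the authors' deposited table. SARS, the one classed A in the authors' deposited table, stood at 0.23, inside the range of the 11 classed m6Am.

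Transcript stability was given for HARS2 and LARS2 alone. The authors' deposited SLAM-seq table holds 1 ratio of KO over WT per gene for 666 entries, from libraries with 1 sample per genotype and time, and does not state what was divided. LARS2, classed m6Am, had a ratio of 0.396 in the authors' deposited table, the 41st lowest entry. HARS2, classed A, had 0.675 there, the 183rd lowest. The table's median was 0.891 and its range 0.164 to 3.96, and the quartiles of its entries classed m6Am were 0.648 and 1.26. LARS2 lay below the lower one, with no replicate to set it against, while its input RNA was 309.5 ± 19.3 CPM in KO (SD, n = 3) and 331.5 ± 25.1 in WT (SD, n = 2).

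Other genes of the pathway came from lists of scaffold subunits, charging and editing factors, carriers of charged tRNA and amino acid response genes. m6Am regions lay at the start of 6 of 7 carrier genes (EEF1A1, EEF1B2, EEF1D, EEF1G, TUFM and TSFM, which bring charged tRNA to the ribosome or recharge the factor that does), without EEF1A2. They lay at 3 of 11 charging and editing genes (GATB, AARSD1 and PTRH2), at 1 of 3 scaffold genes (AIMP2) and at 4 of 15 amino acid response genes (ATF4, PHGDH, PSAT1 and SLC7A5). The share was 8.9% over all protein-coding genes and 16.4% over those with an m6A site in the WT list. Genes with no strand at hand, among them EEF1D and EEF1A2, were searched on either strand. The span of PCIF1 held 1 m6A site in each KO list and 2 in WT, which says nothing of its level. Of the amino acid response genes with a promoter window, 4 of 13 held TGATGNAA (30.8%, 9.09 to 61.4%), against 3.6% of protein-coding genes.

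Counts were at hand for 1 of 7 carriers, 3 of 15 amino acid response genes and 0 of the 3 scaffold and 11 charging and editing genes, and 0 of them passed the test in any of the 3 fits (edgeR). ATF4, whose translation is set by upstream reading frames, had 353.3, 361.8 and 377.2 input CPM in KO and 347.3 and 352.8 in WT. Its fragments were 52, 14 and 17 counts in KO and 10 and 57 in WT, or 404.9, 335.5 and 285.7 CPM against 537.5 and 922.6. The log2 fold change of its efficiency was -1.24 (SE 0.3, edgeR adjusted p = 0.416), while DESeq2 gave -1.27 (adjusted p = 0.0172), the 1 gene it called. Without WT replicate 2 it was -0.69. TUFM is the mitochondrial elongation factor, SLC7A5 an amino acid transporter and SHMT2 a mitochondrial enzyme of serine metabolism, not a synthetase. Their efficiency changes were -0.09, 0.10 and 0.29, with edgeR adjusted p from 0.82 to 0.99.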

How the data were processed

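Members and gene lists were chosen with earlier results of these data known. The submitters' processing notes list the builds GRCh38 and hg38 and the tools STAR, deepTools, bedtools and BWA 0.7.17 without roles. Which of them made which file is not given in the sources used here. Raw counts per Ensembl gene fill the deposited input and fragment tables. Per the file headers, the authors' efficiency table holds log2 fold changes, p-values, a mean signal and a score (test statistic), and their SLAM-seq table a ratio. The deposited m6Am list has a score per region, and the deposited m6A lists have counts of substituted reads (at least 2) and of reads (at least 4), called per library.

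Ensembl identifiers were paired with names through the authors' class tables, for 14 of 36 members. Counts were tested over whole tables with edgeR 4.0.16 in R 4.3.3 (TMM, robust quasi-likelihood, filterByExpr for input, no filter for fragments, prior count 2), Benjamini-Hochberg threshold 0.05; SE is derived from the F statistic. Efficiency was the interaction of genotype and library kind. On simulated data, with 191 genes changed in the input and 196 in each of the other fits, 2-fold changes were recovered in 70.2% (input), 16.8% (fragments) and 10.2% (efficiency), and 4-fold ones in 99.5%, 97.4% and 93.4%. The simulated counts had a fixed dispersion for each kind of library, which was not estimated from these data. They held no outlying library, and only genes at or above the median level were changed. These shares may therefore exceed what the real fits would recover. Alternatives were DESeq2 1.42.0, RLE factors, column totals (fragments), no filter (input), the replicate number as a block and leaving out each library. Shared replicate numbers give only 2 pairs of libraries (correlations of deviations -0.003 to 0.209) and are not stated to mark a shared culture, so they were not taken as pairing.

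All 5 columns of each table matched a sample by title. Sites were counted inside gene spans on the gene's strand; 4 members (DARS, VARS, AARS2, VARS2) had no strand at hand and were counted on either. Regions were assigned within 50 nt of the start, on the same strand. Genes with no strand at hand, among members and all protein-coding genes, were searched on either strand. Exact Clopper-Pearson intervals at 95% (Python 3.11.15, scipy 1.17.1) and floors of 3 counts cover counting error only, because reads carry no molecular identifier here and may repeat a molecule. Replicate pairs differed beyond sampling noise (chi-square over degrees of freedom 2.92 to 19.9). Sequences are from RefSeq, GRCh38.p14. Named were all members in a count or class table or with a region, the 5 with most WT sites, the 6 positions with most substituted reads, and genes of the fixed lists. No transcript length was at hand, so levels were not compared between genes. The mouse MEF lists were not used here. Plots were drawn with matplotlib.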

Additional observations from a re-analysis of the deposited data

How the results depend on the processing

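The counts of called synthetase genes stayed at 0 in all 3 fits under RLE factors, DESeq2, the replicate block, no filter (input) and column totals (fragments and efficiency), and in the input they ran from 0 to 3 when 1 library was left out (3 without WT replicate 2: RARS, EPRS and IARS2). The cytosolic input median was 0.01 with the replicate block and 0.02 to 0.08 leaving out 1 library. Over all genes the input test called 5 genes, against 15 with DESeq2, 152 with no filter and 3 with the replicate block. Leaving out a WT library gave 53 (replicate 1) and 1912 (replicate 2), and leaving out a KO library 2, 8 or 3. The fragment test called 0, against 6 with the replicate block, 3 without WT replicate 2, and 1 each without KO replicate 1 and KO replicate 3. The efficiency test called 0, against 1 with DESeq2 and 10 without WT replicate 2. m6A sites with at least 10 substituted reads numbered 25 and 24 in KO and 14 in WT (16.7%, 14.6% and 9.27% of synthetase sites, against 7.95%, 10.3% and 7.5% of all sites), where median reads at synthetase sites were 63.5 and 70.5 in KO and 50 in WT. Regions with a score of at least 3 left 10 genes.

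Values near 0 changed sign, none of them called. Input SARS was 0.00 with RLE factors and 0.00 with DESeq2, and input FARSA -0.02 with the replicate block; fragments of IARS and RARS were 0.07 and 0.14 with the replicate block. Leaving out 1 library, input values ran from -0.13 to 0.04 (AARS), -0.08 to 0.19 (FARSA), -0.28 to 0.09 (GARS), -0.02 to 0.08 (IARS), -0.01 to 0.10 (KARS and SLC7A5), -0.01 to 0.01 (SARS), -0.02 to 0.01 (YARS), -0.08 to 0.03 (HARS2) and -0.01 to 0.11 (SHMT2). Fragment values ran from -0.63 to 0.17 (AARS), -0.17 to 0.07 (EPRS), -0.63 to 0.66 (IARS), -0.15 to 0.15 (RARS), -0.16 to 0.05 (TARS), -0.29 to 0.02 (YARS), -0.15 to 0.03 (IARS2), -0.24 to 0.18 (TUFM) and -0.08 to 0.35 (SLC7A5). Efficiency values ran from -0.68 to 0.29 (AARS), -0.69 to 0.70 (IARS), -0.26 to 0.04 (YARS), -0.44 to 0.18 (TUFM) and -0.23 to 0.30 (SLC7A5). The cause was not tested. Fragment depth, with 17665 counts in WT replicate 1, limits what these fits can show.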
